A study of Mus musculus with 48 samples.

Results

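The genes described here are 10 genes linked to neuronal activity and the synapse, the transcription factor Npas4 and 9 effectors: Arc, Homer1, Npas4, Ptgs2, Nptx2, Plk2, Rheb, Rgs2, Gadd45b and Nrn1. They were chosen by name, but with earlier results of these data known. Counts of called members set beside the share of all genes below are therefore not independent of these data. They are 10 of the 24421 genes in the count table. All 10 had enough reads to be tested in every comparison. Their RNA was measured in the hippocampal Cornus Ammonis (CA1, CA2 and CA3, with the dentate gyrus removed) of 48 male mice, 1 library per mouse. Conditional knockout mice carried the floxed alleles CB1f/f of the cannabinoid receptor gene Cnr1 together with a Cre transgene, driven by nex regulatory elements in the Glu-CB1 line (principal glutamatergic neurons of the forebrain) or by dlx5/6 elements in the GABA-CB1 line (forebrain GABAergic neurons). CB1-WT mice were littermates of the same line, given an age of 8 weeks by the labels like all others. Mice were taken from the home cage (basal) or after 5 min of exploring an unfamiliar open field arena (OF), with tissue collected an hour afterwards. The groups were Glu-CB1-WT basal (n = 5), Glu-CB1-KO basal (n = 7), Glu-CB1-WT OF (n = 5), Glu-CB1-KO OF (n = 7), GABA-CB1-WT basal (n = 6), GABA-CB1-KO basal (n = 6), GABA-CB1-WT OF (n = 7) and GABA-CB1-KO OF (n = 5). The study's text gives the sizes of the GABA-CB1 OF groups the other way round; the labels were used here, and the level of Cnr1 matched them. The deletion is restricted to the Cre-expressing neurons, so the knockout tissue still holds intact Cnr1 in all other cells, and the nex driver is that of Neurod6, a gene of the same principal neurons.

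Synaptic activity opens calcium channels and NMDA receptors, and the calcium signal reaches the nucleus through kinases that phosphorylate CREB and SRF cofactors. A first wave of immediate early genes follows. Part of this wave encodes transcription factors (Fos, Egr1), and another part encodes effectors that act at the synapse directly, by removing AMPA receptors, rebuilding the postsynaptic scaffold, sending signals back across the cleft or limiting G protein signalling. In the hippocampus these effectors are known for their part in long-term potentiation, homeostatic scaling and memory consolidation. CB1 is a presynaptic receptor that lowers transmitter release, from glutamatergic terminals in one line's target cells and from GABAergic terminals in the other's.

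Because CREB binds a known DNA element, the 250 bases before each transcription start were searched for it. RefSeq promoter entries (GRCm38.p6, the assembly also called mm10) were matched by symbol for 7 of the 10 members, with 8 entries because Homer1 has a pair of starts. Each window was searched on both strands for TGACG, the core of the cyclic AMP response element (CRE), and for the full palindrome TGACGTCA, which contains the core on both strands. The letters TATAAA were searched on the gene's strand. The windows shown are those of the 4 members with a significant difference in some comparison and a RefSeq entry (Npas4, Ptgs2, Gadd45b, Rgs2), and, for contrast, those of Plk2, which holds the full CRE, and of the upstream Homer1 start, which holds the most cores. They read 5′ to 3′ on the gene's strand, and capitals mark the core, which reads CGTCA where it lies on the opposite strand.
Npas4, chr19:4989972-4990221, minus strand: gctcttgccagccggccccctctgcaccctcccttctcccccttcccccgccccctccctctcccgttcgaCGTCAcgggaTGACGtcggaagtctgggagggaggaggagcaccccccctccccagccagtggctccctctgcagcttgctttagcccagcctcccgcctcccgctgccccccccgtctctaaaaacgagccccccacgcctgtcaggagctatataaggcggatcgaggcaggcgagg
Ptgs2, chr1:150099781-150100030, plus strand: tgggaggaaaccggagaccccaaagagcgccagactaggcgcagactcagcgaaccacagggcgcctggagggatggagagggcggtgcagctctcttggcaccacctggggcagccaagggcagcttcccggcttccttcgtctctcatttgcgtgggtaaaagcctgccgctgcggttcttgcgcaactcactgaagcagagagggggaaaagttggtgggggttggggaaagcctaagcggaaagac
Gadd45b, chr10:80929841-80930090, plus strand: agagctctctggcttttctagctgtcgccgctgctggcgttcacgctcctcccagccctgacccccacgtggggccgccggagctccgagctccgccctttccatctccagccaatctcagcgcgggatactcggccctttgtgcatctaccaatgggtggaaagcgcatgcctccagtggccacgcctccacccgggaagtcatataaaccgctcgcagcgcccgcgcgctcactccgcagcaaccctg
Rgs2, chr1:144004150-144004399, minus strand: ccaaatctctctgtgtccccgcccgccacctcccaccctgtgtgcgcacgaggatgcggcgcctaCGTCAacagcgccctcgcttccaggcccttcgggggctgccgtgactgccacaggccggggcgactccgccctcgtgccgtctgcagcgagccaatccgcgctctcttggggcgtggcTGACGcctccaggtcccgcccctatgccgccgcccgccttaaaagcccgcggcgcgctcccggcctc
Plk2, chr13:110394794-110395043, plus strand: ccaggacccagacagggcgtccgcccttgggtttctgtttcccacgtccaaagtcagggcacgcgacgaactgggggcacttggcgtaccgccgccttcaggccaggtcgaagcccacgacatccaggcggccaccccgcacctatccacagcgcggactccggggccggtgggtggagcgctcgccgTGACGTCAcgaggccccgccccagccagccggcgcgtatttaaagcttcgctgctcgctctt
Homer1, chr13:93303507-93303756, plus strand: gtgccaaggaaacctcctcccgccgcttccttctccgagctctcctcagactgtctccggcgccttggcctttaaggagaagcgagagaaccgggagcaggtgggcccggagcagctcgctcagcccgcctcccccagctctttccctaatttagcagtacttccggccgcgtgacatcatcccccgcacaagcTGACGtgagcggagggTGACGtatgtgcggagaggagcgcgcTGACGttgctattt

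The core was present in 5 of the 8 member windows (62.5%), those of Npas4, Rgs2, Plk2, Rheb and the upstream start of Homer1. Among all 32851 windows of the same length in the table, 17.8% held it. The member windows with a core were 62.4% to 72.4% G and C, and those without 46.8% to 65.2%. The share over all windows was not matched for base composition, and the part of composition was not tested. The full CRE lay in the Plk2 window alone, starting 62 bases before the transcription start, whereas 1.55% of all windows had it. The upstream Homer1 window carried 3 cores, which begin 56, 40 and 14 bases before the start, as did 0.688% of windows with at least 3. Npas4 had a core at 179 and another at 169 bases before its start, in opposite orientations. Rgs2 had cores at 185 and 67 bases before its start. The Ptgs2 and Gadd45b windows, and that of the downstream Homer1 start, held no core. TATAAA was in the Gadd45b window alone, 46 bases before the start, and in 7.59% of all windows. For Ptgs2 and the upstream start of Homer1 the RefSeq start lies before the start in the deposited gene model. The bases between those starts were not searched. The lack of a core in the Ptgs2 window therefore says nothing about the bases just before its deposited start.

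Per kilobase of exon, the 10 members spanned a wide range of mean level over the 48 libraries. The values here are CPM (counts relative to library size) scaled by TMM, a factor that corrects for the makeup of each library, and divided by exon length. Nrn1 (neuritin, a GPI-anchored protein that promotes neurite growth and stabilizes synapses) was highest at 153 CPM per kb. Plk2, a kinase of homeostatic synaptic scaling, followed at 107, and Rheb, the small GTPase that activates mTORC1, at 64.1. Arc, which drives AMPA receptor endocytosis, had 37.5 CPM per kb, and Homer1, a scaffold that links group I metabotropic glutamate receptors to intracellular calcium stores, had 24.2. Nptx2 (a secreted pentraxin that clusters AMPA receptors), Rgs2 (a GTPase activator for Gq and Gi proteins) and Ptgs2 (cyclooxygenase-2, the inducible enzyme of prostaglandin synthesis, which can also oxidize endocannabinoids) lay close together at 11.9, 11.7 and 11.2. Gadd45b, linked to active DNA demethylation, had 5.77 and the transcription factor Npas4 3.22. In the deposited gene models (mm10), the 5 members with a called difference between groups span chr1:150100124-150108012 on the plus strand (Ptgs2), chr19:4984355-4989971 on the minus strand (Npas4), chr13:36725622-36734477 on the minus strand (Nrn1), chr15:74669081-74672570 on the minus strand (Arc) and chr10:80930091-80932204 on the plus strand (Gadd45b); Rgs2, called between the lines, spans chr1:143999338-144004149 on the minus strand. Reads of the short, activity-induced Homer1a transcript and of the long Homer1 forms were counted together, so they cannot be told apart here. In bulk tissue, moreover, fewer cells of a type and less RNA per cell cannot be told apart.

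Libraries held 25892654 to 34091080 counts on genes. Cnr1 matched the labels, at 330 to 412 CPM in Glu-CB1-WT against 204 to 249 in Glu-CB1-KO and at 311 to 394 in GABA-CB1-WT against 100 to 158 in GABA-CB1-KO, without overlap in either line. Along the first principal component of 500 variable genes, computed without the members, 14 of the 48 libraries stood apart, 1 to 3 in each of the 8 groups: Xkr4, among the genes that weigh most in it, was at 3.22 to 5.51 CPM in them and at 8.74 to 39.3 in the other 34. With group means in the model, these 14 libraries were lower in Homer1 by a log2 difference of -0.35 (SE 0.045), in Ptgs2 by -0.30 (SE 0.066) and in Nptx2 by -0.28 (SE 0.067). The other 7 members differed by at most 0.13 in either direction. Of the 14 libraries, those of the Glu-CB1 line carried some of the lowest numbers of that line at the end of their titles. The limit of 1000 on that number, used below for the title number covariate, does not set them apart. Summed CA pyramidal markers ranged from 1847 to 2333 CPM over all libraries and interneuron markers from 710.3 to 943. Neurod6, a pyramidal marker, was lower in Glu-CB1-KO than in Glu-CB1-WT at the basal state (log2 fold change -0.66). It is also the gene of the nex driver of this line. Of the 9 pyramidal markers, 5 were higher and 4 lower in that comparison, with a median of 0.03, and only Neurod6 was called. Oligodendrocyte markers ranged from 3034 to 5067 CPM, astrocyte markers from 1457 to 1891, microglia markers from 229 to 298, vascular markers from 137 to 213, thalamus markers from 82.7 to 127 and dentate granule cell markers from 127 to 348. Choroid plexus markers reached 4048 CPM in 1 GABA-CB1-KO OF library, 1505 in 1 GABA-CB1-WT basal library and 629.9 in 1 Glu-CB1-KO basal library. Of the 5 blood markers, 4 had no count. The part of these differences in the results was not tested beyond the fits named below.

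The first question was whether the members differed between knockout and wild type in undisturbed mice. In the GABA-CB1 line 3 of 10 did, all lower in the knockout: Ptgs2, Npas4 and Nrn1. Over all 15082 genes tested in this comparison 0.245% were called, and 0.206% were called lower. By the running number in the library titles, all wild types of this comparison come before all knockouts. Its order and the genotype therefore cannot be told apart here. A gene is called when its adjusted p, from edgeR's quasi-likelihood F-test with Benjamini-Hochberg adjustment over all tested genes, is under 0.05, and the same test gives every adjusted p below unless DESeq2 is named.

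Ptgs2 in GABA-CB1-WT basal mice ran from 45.4 to 59.1 CPM with a median of 47.9. In GABA-CB1-KO basal mice it ran from 28.01 to 34.2 with a median of 31.2. Every knockout lay below every wild type, with a clear gap between the groups. The means were 31.1 ± 2.72 CPM (SD, n = 6) and 49.5 ± 5.09 (SD, n = 6), a log2 fold change of -0.67 (SE 0.070, adjusted p = 6.68e-04). Leaving out any of the 12 libraries kept it between -0.70 and -0.61. Without the 14 libraries described above it was -0.76 (adjusted p = 6.78e-04).

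Npas4, a transcription factor that in excitatory neurons recruits inhibitory synapses to the cell body, was at 8.52 to 10.9 CPM in GABA-CB1-WT basal (median 10.6) and at 6.55 to 8.02 in GABA-CB1-KO basal (median 7.26). The groups did not overlap, although the lowest wild type came close to the highest knockout. Its log2 fold change was -0.49 (SE 0.068, adjusted p = 0.00604). With the 14 libraries left out the change was -0.45, with an adjusted p of 0.0636. When all 48 libraries shared 1 estimate of the spread, which is larger for Npas4 in other groups, the change was -0.49 with an adjusted p of 0.616.

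Nrn1 moved least of the 3. It was at 236 to 270.0 CPM in GABA-CB1-WT basal mice (median 249) and at 208 to 229.9 in GABA-CB1-KO basal mice (median 221), again without overlap. The log2 fold change was -0.20 (SE 0.037, adjusted p = 0.0390). This call was lost in 11 of the 12 fits that left 1 out, with adjusted p up to 0.117, and it stayed under the threshold only without GABA-CB1-WT basal replicate 2 (adjusted p = 0.0252).

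Of the other 7 members in this comparison, 5 were lower and 2 higher, none past the threshold. Nptx2 was at 17.4 to 26.7 CPM in the knockout and 24.3 to 32.5 in the wild type, which overlap, with a log2 fold change of -0.44 (SE 0.098, adjusted p = 0.113); without GABA-CB1-KO basal replicate 5 it was -0.52 with an adjusted p of 0.0337, and DESeq2 called it with the full set (adjusted p = 0.00422). Rgs2 differed by -0.20 (adjusted p = 0.212) and Plk2 by -0.10 (95% confidence interval -0.18 to -0.01, adjusted p = 0.561). Rheb (-0.04), Gadd45b (-0.05), Arc (0.03, interval -0.31 to 0.36) and Homer1 (0.11, interval -0.11 to 0.34) had intervals that include 0. The median over the 10 members was -0.15, against 0.00 for all tested genes.

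**Figure D1:**
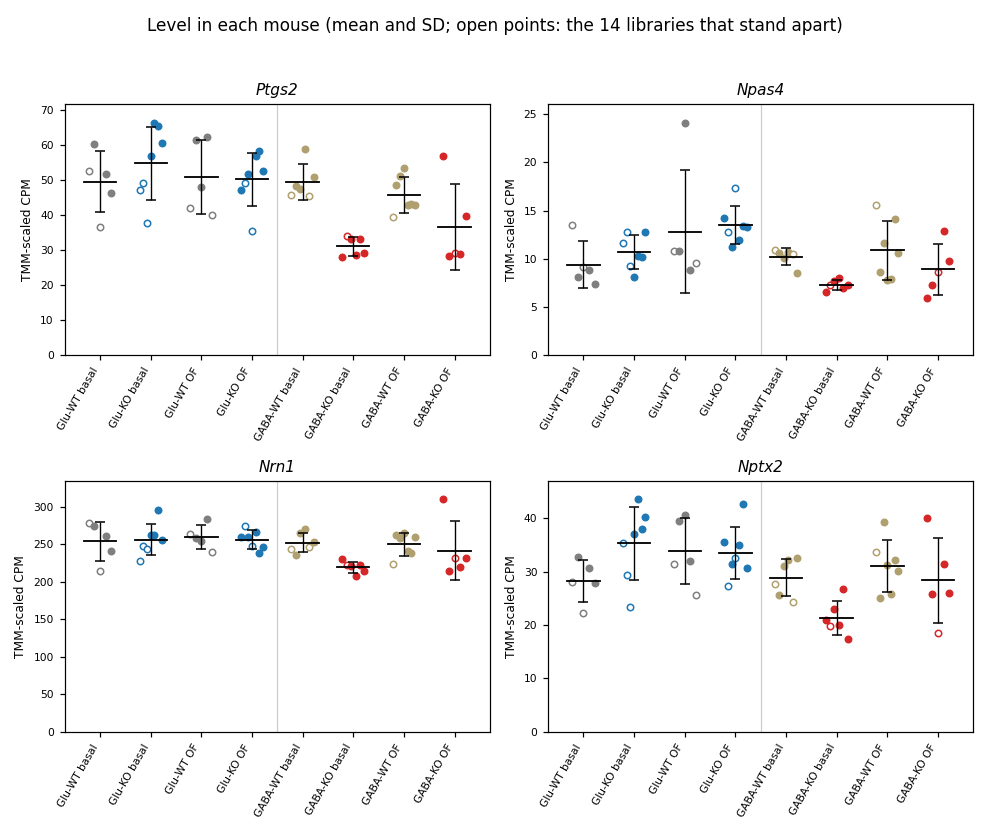
Level of Ptgs2, Npas4, Nrn1 and Nptx2 in each mouse (TMM-scaled CPM, linear axes from 0) in the 8 groups of line, genotype and state; points are mice, lines and bars are the mean and SD, and open points mark the 14 libraries that stood apart. In all 4 genes the GABA-CB1-KO basal group has the lowest mean, and for Ptgs2, Npas4 and Nrn1 it lies wholly below GABA-CB1-WT basal.

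Ptgs2 and Nrn1 varied with markers of CA3, and opposite to those of the subiculum, between mice. The list of 3 CA3 markers (Bok, Grik4, Iyd), 4 CA1 markers (Wfs1, Mpped1, Fibcd1, Spink8) and 2 subiculum markers (Fn1, Nts) was drawn up after the values were seen. Over the 48 libraries, after group means were subtracted, Ptgs2 had a Pearson r of 0.75 with Grik4, 0.72 with Iyd, 0.58 with Bok and -0.58 with Fn1, and Nrn1 had 0.58, 0.72, 0.73 and -0.69. With Nts the values were -0.53 for Ptgs2 and -0.66 for Nrn1. With the CA1 markers Wfs1, Mpped1, Fibcd1 and Spink8, Ptgs2 had -0.24, -0.52, -0.16 and -0.09 and Nrn1 -0.21, -0.54, -0.33 and 0.04. In the GABA-CB1 basal comparison 1 of the 9 markers was called, Bok, with a log2 fold change of -0.52 (adjusted p = 0.00328), and the 8 others were not. Grik4 was at 73.0 to 88.0 CPM in the knockout against 73.5 to 96.1 in the wild type, a log2 fold change of -0.05 (interval -0.18 to 0.08). Summed CA3 markers were at 112 to 134 CPM in the knockout and at 127 to 167 in the wild type, and summed CA1 markers at 641 to 788 and 600.3 to 809. With the level of Grik4 as a covariate Ptgs2 differed by -0.64 (adjusted p = 5.13e-04), and with the mean level of all 3 CA3 markers by -0.55 (adjusted p = 0.00647). Under the same covariates Npas4 differed by -0.49 (adjusted p = 0.0137) and -0.53 (adjusted p = 0.0337), and Nrn1 by -0.19 (adjusted p = 0.0758) and -0.13 (adjusted p = 0.352). The mean of the 3 CA3 markers includes Bok, itself called lower in this knockout, so that covariate varied with genotype. Its part in these values was not tested.

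In the Glu-CB1 line at the basal state none of the 10 members was called, and 0.0198% of 15138 genes were. Before adjustment 2 members and 541 of the 15138 genes had a p under 0.05. DESeq2 called 7 of 24421 genes, likewise no member. All 10 point estimates were above 0, with a median of 0.11. Rgs2 was highest relative to its error, at 32.3 to 42.8 CPM in Glu-CB1-KO basal (median 40.4) and at 30.7, 31.3, 34.1, 34.7 and 37.2 in the 5 wild types. Most knockouts were above all wild types but 2 of 7 were not, and the log2 fold change of 0.22 (SE 0.073, interval 0.07 to 0.38) had an adjusted p of 0.999. Nptx2 differed by 0.32 (SE 0.13, interval 0.04 to 0.60, adjusted p = 0.999) and Ptgs2 by 0.14 (interval -0.15 to 0.44). The intervals of Arc, Npas4 and Homer1 also included 0.

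The lines were then compared directly, by the KO-WT difference in the GABA-CB1 line minus that in the Glu-CB1 line. At the basal state 2 of the 10 members differed, against 0.279% of 15390 genes. Ptgs2 differed by -0.82 on the log2 scale (SE 0.17, adjusted p = 0.0237) and Rgs2 by -0.42 (SE 0.093, adjusted p = 0.0461). For both the knockout mean was above the wild type in the Glu-CB1 line and below it in the GABA-CB1 line. For Rgs2 the 4 basal means were 39.2 ± 3.97 CPM in Glu-CB1-KO (SD, n = 7), 33.6 ± 2.63 in Glu-CB1-WT (SD, n = 5), 29.9 ± 1.68 in GABA-CB1-KO (SD, n = 6) and 34.3 ± 2.57 in GABA-CB1-WT (SD, n = 6). The Rgs2 call was lost in 19 of 24 fits that left out 1 library, with adjusted p up to 0.106. That of Ptgs2 was lost without Glu-CB1-WT basal replicate 5, GABA-CB1-WT basal replicate 4 or GABA-CB1-KO basal replicate 6, with adjusted p up to 0.0584. Nptx2 and Npas4 had differences of -0.76 (adjusted p = 0.0717) and -0.68 (adjusted p = 0.125). Nptx2 stayed above the threshold in 5 of 12 alternative fits and was called in the others, at -0.89 to -0.66 with adjusted p from 0.00347 to 0.233 over all of them. DESeq2 also called Npas4 (adjusted p = 0.0229). Without the 14 libraries that stood apart, Nptx2 differed by -0.88 (adjusted p = 0.00996), Npas4 by -0.80 (adjusted p = 0.0486), Ptgs2 by -1.002 (adjusted p = 7.81e-04) and Rgs2 by -0.48 (adjusted p = 0.108).

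After the open field no member passed the test between genotypes in either line. In the Glu-CB1 line 0.272% of 15078 genes were called and no member, with 1 member and 1051 genes under an unadjusted p of 0.05. DESeq2 called 123 of 24421 genes there, none a member. Rgs2 had the highest value relative to its error, with a log2 fold change of 0.14 (interval 0.01 to 0.27, adjusted p = 0.639). Ptgs2 was at 50.2 ± 7.64 CPM (SD, n = 7) in Glu-CB1-KO OF and at 50.8 ± 10.5 (SD, n = 5) in Glu-CB1-WT OF. In the GABA-CB1 line 0.0199% of 15097 genes were called, and again no member, with 1 member and 2000 genes under an unadjusted p of 0.05. DESeq2 called many more genes there, 143 of 24421, but no member.

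In the GABA-CB1 line the size of the Ptgs2 difference between genotypes after the open field moved most without 1 mouse. Leaving out any of the 12 libraries kept it uncalled, at -0.54 to -0.24. The 5 GABA-CB1-KO OF mice had 57.0, 28.4, 29.3, 28.9 and 39.8 CPM, while the 7 wild types ran from 39.5 to 53.5 with a median of 43.1. Of the knockouts 3 were below every wild type, 1 was just above the lowest wild type and replicate 1 was above all of them. The log2 fold change was -0.32 (SE 0.15, interval -0.65 to 0.00, adjusted p = 0.384), and without replicate 1 it was -0.54 (adjusted p = 0.0831). That library also had the highest level of Nrn1 of all 48 (309.9 CPM) and of the CA3 marker Bok (81.6 CPM, against 31.4 to 60.4 in the other 47), and the lowest of the subiculum marker Fn1 (39.6 CPM, against 42.9 to 112). Npas4 differed by -0.29 (interval -0.73 to 0.14) and Nptx2 by -0.13 (interval -0.45 to 0.19). Summed interneuron markers were at 754.9 to 804 CPM in GABA-CB1-KO OF and at 827 to 882 in GABA-CB1-WT OF, and their part in these values was not tested. In the comparison of the lines in this state the interneuron markers Sst (-0.78) and Gad1 (-0.25), the pyramidal marker Neurod6 (0.80) and the thalamus marker Prkcd (0.62) were called. All 8 interneuron markers were lower, with a median of -0.23. Of the 9 pyramidal markers, 8 were higher and 1 lower, with a median of 0.23. The 5 thalamus markers were divided, 3 higher and 2 lower, with a median of 0.02. All 6 choroid plexus markers were higher, none of them called, with a median of 2.58. The difference between the lines in this state was past the threshold for no member, with 0.568% of 15325 genes called. By unadjusted p 2 members and 1652 genes were under 0.05, and DESeq2 called 194 of 24421 genes but no member. Ptgs2 differed by -0.31 (interval -0.75 to 0.14, adjusted p = 0.661). With the CA3 marker level as a covariate it was called, at -0.85 (adjusted p = 4.44e-04), and with the Grik4 level at -0.71 (adjusted p = 0.0304). The CA3 markers Bok, Grik4 and Iyd themselves had line differences of 0.23, 0.25 and 0.63 in this state, none of them called. Between genotypes of the Glu-CB1 line Iyd was called (-0.56, adjusted p = 0.0463). The covariate thus varied with the groups compared, and its part in the change of Ptgs2 was not tested. Without GABA-CB1-KO OF replicate 1, Rgs2 was called, at -0.38 (adjusted p = 0.0266).

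**Figure D2:**
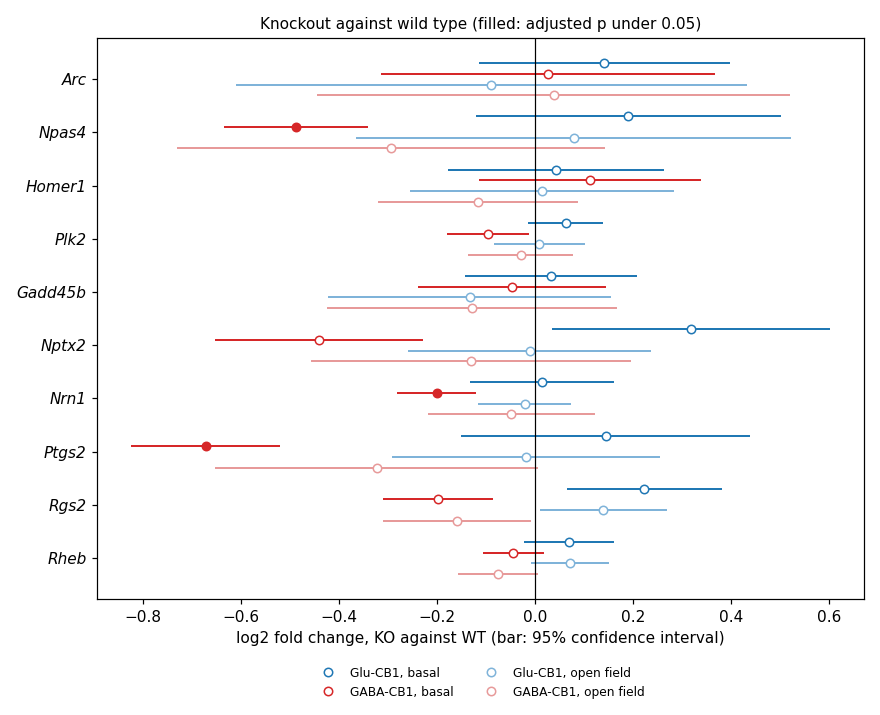
Log2 fold change of knockout against wild type for each member, by line and state, with the 95% confidence interval from the edgeR fit; filled points have an adjusted p under 0.05. Filled points appear only for Npas4, Nrn1 and Ptgs2 in the GABA-CB1 line at the basal state, with values of -0.49, -0.20 and -0.67.

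The next question was which members responded to the open field. With genotype as a term in the model and both genotypes pooled within a line, 2 of the 10 were called in each line, Arc and Gadd45b both times, all higher after exposure. In the Glu-CB1 line 1.8% of 15355 genes were called and 1.33% called higher, and in the GABA-CB1 line 0.963% of 15374 and 0.761% higher. The study chose mice for sequencing partly by their Arc RNA after the open field, measured by RT-qPCR, so the rise of Arc is not independent evidence of a response, nor is that of a gene that follows Arc between mice. The running number in the library titles separates the 4 blocks of line and state completely, so its order and the state cannot be told apart. Within the GABA-CB1 basal block it separates the genotypes completely as well.

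Arc at the basal state was at 61.7 to 109 CPM in Glu-CB1-WT, 79.3 to 120.1 in Glu-CB1-KO, 75.0 to 119 in GABA-CB1-WT and 63.4 to 122 in GABA-CB1-KO. After the open field the 5 Glu-CB1-WT mice had 168, 109, 243, 115 and 97.9 CPM and the 5 GABA-CB1-KO mice 99.6, 141, 127, 226 and 118. Glu-CB1-KO mice then ran from 76.9 to 217 CPM (median 134) and GABA-CB1-WT mice from 86.5 to 216 (median 130). In each of the 4 kinds of mice some exposed animals stayed within the basal range, while others were above every basal animal. The log2 fold change was 0.64 (SE 0.15, adjusted p = 0.0221) in the Glu-CB1 line and 0.69 (SE 0.15, adjusted p = 0.0200) in the GABA-CB1 line. The SD was 13.2 to 23.7 CPM in the basal groups and 45.2 to 60.1 after the open field.

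Gadd45b rose by less, from group means of 6.03 to 6.72 CPM at the basal state to 7.61 to 8.90 after the open field. The log2 fold change was 0.34 (SE 0.082, adjusted p = 0.0296) in the Glu-CB1 line and 0.38 (SE 0.085, adjusted p = 0.0266) in the GABA-CB1 line. In Glu-CB1-WT mice the basal range of 5.70 to 6.94 CPM lay below the open field range of 7.40 to 12.3. In the other 3 kinds of mice the ranges overlapped. The Glu-CB1 call was lost without Glu-CB1-WT basal replicate 5, Glu-CB1-KO basal replicate 7 or Glu-CB1-KO OF replicate 4 or 6, with adjusted p up to 0.0589. In the GABA-CB1 line it was lost in 6 of 24 such fits, without GABA-CB1-WT basal replicate 4 or 5, GABA-CB1-KO basal replicate 1 or 2, GABA-CB1-WT OF replicate 6 or GABA-CB1-KO OF replicate 4, with adjusted p up to 0.0560. Without the 14 libraries that stood apart neither gene was called in either line. With a term for these libraries in place of leaving them out both genes were called in both lines. Left out, Arc differed by 0.63 (adjusted p = 0.0851) and 0.60 (adjusted p = 0.186), and Gadd45b by 0.35 (adjusted p = 0.107) and 0.32 (adjusted p = 0.186).

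The other 8 members did not pass the test in either line. Npas4 differed by 0.38 (SE 0.13, adjusted p = 0.158) in the Glu-CB1 line and by 0.18 (SE 0.11, adjusted p = 0.577) in the GABA-CB1 line. Of the Glu-CB1-WT OF mice 1 had 24.1 CPM of Npas4, and the 4 others had 10.8, 10.8, 8.82 and 9.54, inside the basal range of 7.34 to 13.5. Homer1 differed by 0.13 (interval -0.04 to 0.30) and 0.19 (interval 0.03 to 0.35, adjusted p = 0.288). It was called in the Glu-CB1 line with the first principal component as a covariate (0.18, adjusted p = 0.00755). With the range of the title number as a covariate it was called in the GABA-CB1 line (0.21, adjusted p = 0.0445). Plk2 differed by 0.08 (adjusted p = 0.153) and 0.07 (adjusted p = 0.361), and Nptx2 by 0.06 and 0.24 (adjusted p = 0.846 and 0.290). Ptgs2, a classical immediate early gene of excitatory neurons, differed by -0.06 (interval -0.26 to 0.14) and 0.05 (interval -0.15 to 0.24). For Nrn1, Rgs2 and Rheb the estimates lay between 0.01 and 0.08.

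**Figure D3:**
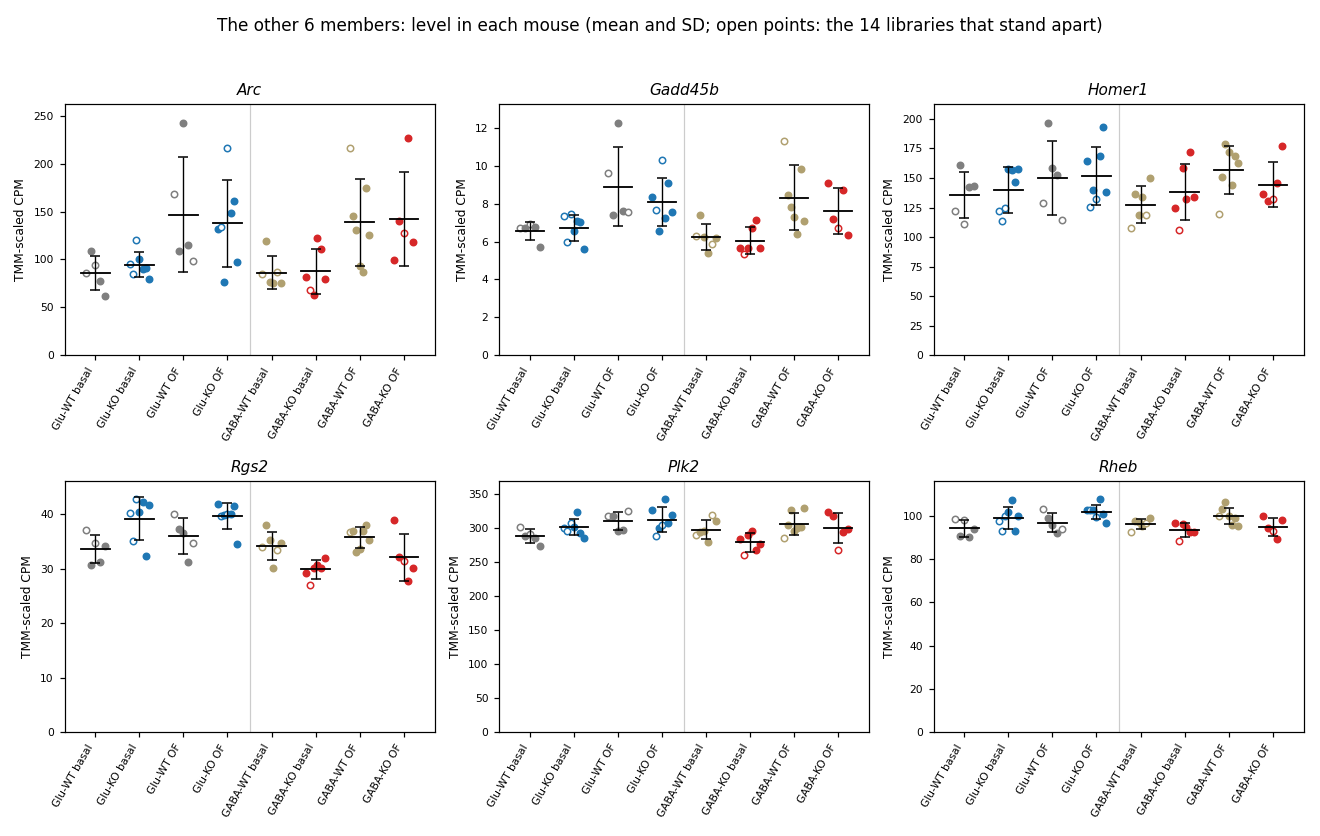
Level of Arc, Gadd45b, Homer1, Rgs2, Plk2 and Rheb in each mouse (TMM-scaled CPM, linear axes from 0), drawn as for the genes lowest in GABA-CB1-KO basal. Arc and Gadd45b have higher means and a wider spread in the 4 open field groups, and Plk2 and Rheb vary little in any group.

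**Figure D4:**
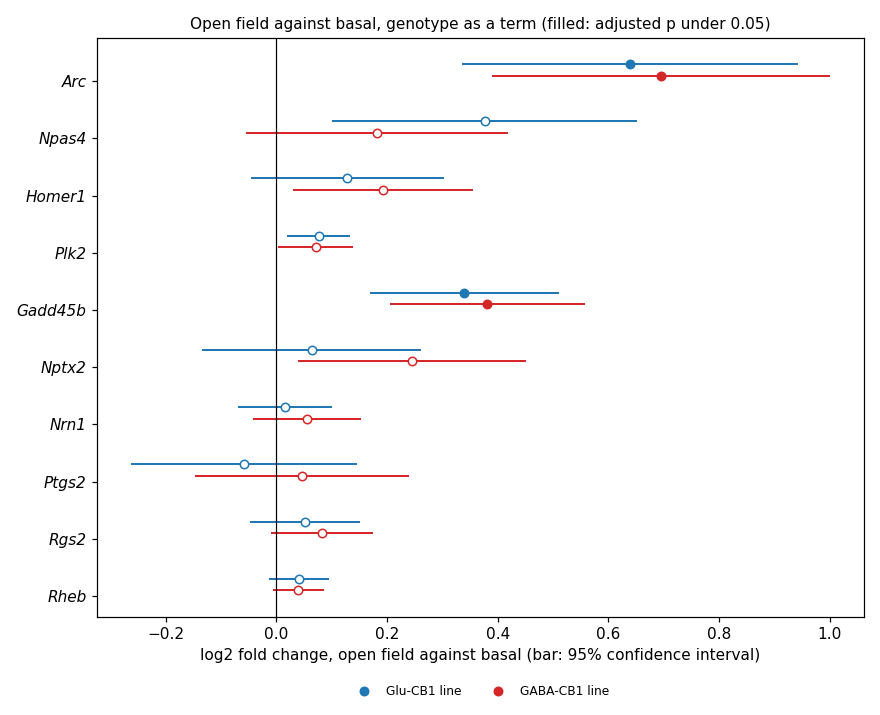
Log2 fold change of open field against basal for each member in the Glu-CB1 and GABA-CB1 lines, with genotype as a term and the 95% confidence interval; filled points have an adjusted p under 0.05. Arc (0.64 and 0.69) and Gadd45b (0.34 and 0.38) are filled in both lines.

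Within 1 genotype no member was called. In Glu-CB1-WT 0.0261% of genes were called, in Glu-CB1-KO 0.306%, in GABA-CB1-WT 0.202% and in GABA-CB1-KO 0.0911%. By unadjusted p 4, 2, 3 and 5 members respectively were under 0.05, among 822, 1704, 1983 and 2247 genes. DESeq2 called 11, 212, 175 and 189 of 24421 genes in the same order. Among them was 1 member, Gadd45b in GABA-CB1-WT (log2 fold change 0.42, adjusted p = 0.0383). Arc had similar sizes in all 4, with 0.77 (SE 0.23) in Glu-CB1-WT, 0.55 (SE 0.19) in Glu-CB1-KO, 0.69 (SE 0.21) in GABA-CB1-WT and 0.70 (SE 0.22) in GABA-CB1-KO. Ptgs2 was at 31.1 CPM in GABA-CB1-KO basal and 36.7 in GABA-CB1-KO OF, a log2 fold change of 0.24 (interval -0.03 to 0.51).

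Whether the knockout changed the response was tested as an interaction of genotype and state. It was past the threshold for no member and for 0% of all genes in either line by edgeR. At an unadjusted p under 0.05 there were 379 genes for Glu-CB1 and 2237 for GABA-CB1, with no member among them, and DESeq2 called 0 and 62 genes, none a member. The intervals were wide for Arc, from -0.84 to 0.39 in the Glu-CB1 line and from -0.61 to 0.63 in the GABA-CB1 line. For Ptgs2 in the GABA-CB1 line the interaction was 0.35 (SE 0.18, interval -0.02 to 0.72, adjusted p = 0.362). The difference in response between the lines was also past the threshold for no member, and 0% of genes were called by edgeR; 327 genes and no member had an unadjusted p under 0.05, and DESeq2 called 0. For Arc this difference was 0.03 (interval -0.41 to 0.48).

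The wider activity program gives the scale for these values, with lists that, like the members, were chosen with earlier results of these data known. A list of 22 activity-regulated transcription factors had 12 called higher after exposure in each line and none lower, with median log2 fold changes of 0.45 (Glu-CB1) and 0.30 (GABA-CB1). The members had medians of 0.07 and 0.13, and all tested genes lay near 0. Egr2 rose by 2.40 and 2.27, Fos by 1.92 and 1.95 and Egr4 by 0.78 and 0.87. Of 30 further activity-regulated effectors, 9 (Glu-CB1) and 8 (GABA-CB1) were called higher, among them the kinase gene Sgk1 (0.49 and 0.53), the small GTPase gene Arl4d (0.51 and 0.52) and the kinase gene Sik1 (0.52 and 0.44). Of 39 binding partners and relatives of the members (other Homer, pentraxin, Gadd45 and Plk genes, receptors and mTORC1 components among them), none was called in either line.

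In the genotype comparisons few genes of these lists were called. No transcription factor of the list was called in either line or state. In GABA-CB1-KO basal mice, where Ptgs2, Npas4 and Nrn1 were lower, 1 of 30 further effectors was called lower, Rem2 (-0.28, adjusted p = 0.0426), an activity-induced regulator of calcium channels, and 1 of 38 tested partners, Gadd45g (-0.66, adjusted p = 0.0190), a relative of Gadd45b. The remaining members of both lists were not called. In the direct comparison of the lines at the basal state, Gadd45g (-0.72, adjusted p = 0.0461) and Ier5 (-0.62, adjusted p = 0.00668) were called, and after the open field Arnt2, a partner of Npas4 (-0.25, adjusted p = 0.0249).

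Between mice of the same group some members varied together. After group means were subtracted, Arc and Gadd45b had a Pearson r of 0.81 over the 48 libraries, Arc and Npas4 0.61 and Gadd45b and Npas4 0.50. Nrn1 and Ptgs2 had 0.72, Nptx2 and Ptgs2 0.63, Homer1 and Nptx2 0.59 and Homer1 and Ptgs2 0.56, and Rgs2 and Rheb had 0.63. The median over the 45 pairs was 0.11 and the lowest -0.38. In the 34 libraries outside that set of 14, Arc with Gadd45b stayed at 0.75 and Nrn1 with Ptgs2 at 0.75, while Homer1 with Ptgs2 was 0.32. Genes in the same libraries share depth and tissue makeup, so these values describe covariation only.

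By the same measure, the 2 genes most like each member were as follows. Those nearest to Arc were Nr4a1 (0.85) and Junb (0.82), and those nearest to Gadd45b were Arc (0.81) and Nr4a1 (0.81). For Npas4 they were Trib1 (0.67) and Arc (0.61), and for Nptx2 Bdnf (0.74) and Rapgef5 (0.72). Ptgs2 was most like Mmd (0.87) and Atp6v1a (0.83), and Nrn1 most like Prkce (0.88) and Erc2 (0.80). Homer1 was nearest to Agfg1 (0.92) and Dlx6os1 (0.91), and it had an r of 0.85 with the principal component that sets the 14 libraries apart. Plk2 was nearest to Map4 (0.81) and Fkbp1a (0.74), Rgs2 to Blcap (0.67) and Htr5a (0.64), and Rheb to Inpp5f (0.75) and Ube2a (0.71).

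The order of the 8 groups by mean level differed between members. For Arc the 4 open field groups took the top 4 places, from 147 to 138 CPM, which do not differ beyond their SDs of 45.2 to 60.1, and the 4 basal groups followed from 94.5 to 85.6. Gadd45b had the same split. Ptgs2 was ordered otherwise, with Glu-CB1-KO basal first at 54.8 ± 10.5 CPM (SD, n = 7), the other 3 Glu-CB1 groups and GABA-CB1-WT basal close together at 49.5 to 50.8, GABA-CB1-WT OF at 45.9 ± 5.14 (SD, n = 7), and the GABA-CB1-KO groups last at 36.7 ± 12.3 (SD, n = 5) after the open field and 31.1 ± 2.72 (SD, n = 6) at the basal state. GABA-CB1-KO basal had the lowest mean of the 8 groups for 8 of the 10 members, all but Arc and Homer1, which were lowest in Glu-CB1-WT basal and GABA-CB1-WT basal. The share of all genes with their lowest mean in this group was not computed, and some members varied together. This count therefore only describes the order of these means. Plk2 and Rheb varied least, with coefficients of variation within a group of 3.52% to 7.30% and 2.39% to 5.15%.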

How the data were processed

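RNA from 48 hippocampal samples was amplified with a single primer isothermal kit that does not mark strand, and single reads were sequenced. The authors deposited raw counts per gene (mm10), made with STAR 2.6.0a and featureCounts 1.6.2 according to the submitters' processing notes. featureCounts was run with a reverse-strand setting. Since the kit does not mark strand, reads of a gene and its antisense partner cannot be told apart. Here the counts were scaled by TMM and tested with edgeR 4.0.16 in R 4.3.3 (quasi-likelihood F-test, filterByExpr, Benjamini-Hochberg over all tested genes, threshold 0.05). DESeq2 1.42.0, the tool of the study, was an alternative. Totals were 25892654 to 34091080 counts per library, and the lowest member count in any library was 136 (Gadd45b). No 2 libraries of a group agreed within sampling noise. Groups came from the labels. The scripts were tested on simulated data with known changes.

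The genes named are the members, up to 4 called genes of each of 3 lists of activity genes and partners with the largest change, and the 2 genes most like each member by Pearson correlation of log2 CPM (prior count 2) after subtraction of group means. Others (Cnr1, Neurod6, Sst, Gad1, Prkcd, Xkr4 and the subfield markers) were named as checks, some after their values were seen. Members and lists were chosen with earlier results of these data known. The subfield markers, the limit of -4 on the first principal component that sets 14 libraries apart, and 5 of the 12 alternatives were chosen after seeing the data. Each library is 1 mouse, so each test sets a difference between groups against an estimate of the spread between mice.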

Additional observations from a re-analysis of the deposited data

Results flagged for a closer look

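Of 80 sets of values (1 member in 1 group), 6 held a library far from the rest, where chance gives about 4, since about 1 in 20 such sets is marked by chance. Arc was at 119 CPM in GABA-CB1-WT basal replicate 2, with the others at 75.0 to 86.5. Gadd45b was at 5.70 CPM in Glu-CB1-WT basal replicate 5, with the others at 6.70 to 6.94. Npas4 was at 8.52 CPM in GABA-CB1-WT basal replicate 6 (others 10.1 to 10.9) and at 24.1 in Glu-CB1-WT OF replicate 3 (others 8.82 to 10.8). Nrn1 was at 309.9 CPM in GABA-CB1-KO OF replicate 1, with the others at 214 to 232. Rgs2 was at 34.6 CPM in Glu-CB1-KO OF replicate 7, with the others at 39.7 to 41.8.

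The difference between knockout and wild type at the basal state itself differed between the lines for Ptgs2 (-0.82 on the log2 scale, GABA-CB1 minus Glu-CB1) and Rgs2 (-0.42), by edgeR's test of that contrast.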

How the results depend on the processing

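Over 12 alternatives, 165 of 179 counts of called members stayed within 1.5 times the count reported, and of 228 values of single genes 189 kept their direction and side of the threshold, 20 lost the call, 19 gained it and 0 reversed. The 3 members called in the GABA-CB1 line at the basal state became 1 (Ptgs2) with the replicate block, with all 48 libraries in one fit and without the 14 libraries. Over all genes 37 were called there in the main fit, and 8, 27 and 22 under these alternatives. The call of Ptgs2 there was kept under all 12 alternatives, from -0.76 to -0.55, with adjusted p up to 0.0307. After the open field the GABA-CB1 count went from 0 to 1 with the CA3 marker level as a covariate (Ptgs2, -0.41, edgeR adjusted p = 0.0109). The total over all genes went from 3 to 7. Members called after the open field against basal went from 2 to 0 without the 14 libraries in both lines and, in the GABA-CB1 line, with the replicate block. Over all genes the Glu-CB1 total was 276 in the main fit and 285 without the 14 libraries. The GABA-CB1 total went from 148 to 15 without these libraries and to 36 with the block. In GABA-CB1-WT alone the member count went from 0 to 1 with DESeq2, and the total from 31 to 175. For the difference between the lines, the basal count of 2 became 4 with DESeq2 and 1 with no low-count filter, with the replicate block and with all 48 libraries. The basal total over all genes was 43, and 75, 36, 28 and 33 under these alternatives. The open field count of 0 became 1 (Ptgs2, from -0.31 to -0.85 and -0.71) with the CA3 marker level or the Grik4 level as a covariate. Its total over all genes was 87, and 96 and 87 with these covariates. Leaving out 1 library gave 2 to 3 members for GABA-CB1 basal, 1 to 2 for the open field response of either line, 0 to 3 for the line difference at the basal state, 0 to 1 for that after the open field, and 0 in all other comparisons. The cause of these changes was not tested. Where libraries were left out, the number of samples was also smaller, and its part was not tested either.

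Replicate numbers did not pair the samples: deviations of same-numbered samples correlated at -0.33 to 0.38, over 0.1 in 12 of 44 pairs. The fit of all 48 libraries does not apply to the comparison of responses, which already uses them. Depth limits Gadd45b and Npas4 most, whose lowest counts were 136 and 182.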
